A study of Mus musculus with 6 samples.

Results

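The genes described here encode feedback regulators of cell signalling: the dual-specificity phosphatases (Dusp), the suppressors of cytokine signalling (Socs) with their relative Cish, the regulators of G protein signalling (Rgs), and the Sprouty (Spry) and Spred proteins. Members were all genes whose symbol starts with Dusp, Socs, Rgs, Spry or Spred followed by a digit, and Cish. The rule found 62 members among 22180 genes tested: 24 Dusp, 23 Rgs, 8 Socs and Cish, and 7 Spry and Spred. Symbols alone decided membership, so the 23 Rgs include Rgs7bp and Rgs9bp, which are named as binding proteins of Rgs proteins. Every symbol in the reference gene table that met the rule had its own probe set on the array.

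Expression was measured in CD4 cells sorted from the digested lungs of wild-type mice that had been sensitised and challenged with house dust mite (HDM), an allergen that provokes airway inflammation, or with the saline vehicle PBS. Each group had 3 arrays, 1 per sample, titled as biological replicates 1 to 3. The sort kept CD45+ CD4+ cells without CD11b or the macrophage protein that Adgre1 encodes, so naive, effector and regulatory CD4 T cells were measured together. The sources used here give no strain, age, dose or day, nor how many mice made up a sample, so the p-values measure only how these samples spread.

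Signalling pathways switch on their own brakes, and the 4 families act at different levels. Many Dusp proteins remove phosphate from MAP kinases (ERK, JNK and p38) or other signalling proteins. Socs proteins and Cish bind activated cytokine receptors or JAK kinases, and several are induced by the STAT factors that they restrain. Most Rgs proteins speed the hydrolysis of GTP by G protein alpha subunits and so shorten the response to chemokines, while Sprouty and Spred proteins dampen the route from RAS to ERK.

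Promoter sequence is shown for the members whose window held a STAT motif, since STAT factors induce several cytokine brakes, or a cyclic AMP response element. RefSeq promoters (build GRCm38.p6, 250 bases before to 50 after the annotated start) were searched for 43 of the 62 members, in 52 windows; those of Socs2, Rgs1 and Dusp4 were not searched here. The STAT motif TTCNNNGAA was found in 3 member windows, those of Cish, Socs3 and Dusp14, and in 8.3% of all 32851 promoters. The Cish window held it 2 times, at bases 1 to 9 and 12 to 20 after the start, and 0.457% of all promoters held it 2 or more times. Capitals mark the matches in stretches of Cish (chr9:107296529-107296688, plus strand), Socs3 (chr11:117969492-117969540, minus strand) and Dusp14 (chr11:84068529-84068577, minus strand).
Cish: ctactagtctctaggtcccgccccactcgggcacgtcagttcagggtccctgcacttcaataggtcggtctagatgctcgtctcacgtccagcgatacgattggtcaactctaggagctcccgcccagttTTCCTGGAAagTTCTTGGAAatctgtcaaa
Socs3: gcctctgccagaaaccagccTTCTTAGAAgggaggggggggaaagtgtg
Dusp14: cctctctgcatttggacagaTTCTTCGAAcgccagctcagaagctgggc

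The cyclic AMP response element TGACGTCA was found in 2 member windows, those of Dusp8 (2 matches) and Dusp1, and in 1.79% of all promoters. The AP-1 motif TGANTCA was found in 3 member windows, those of Dusp13, Rgs12 and Rgs17, and in 7.81% of all promoters. Both strands were searched, and no member window held more than 1 of the 3 motifs. Stretches of Dusp8 (chr7:142095320-142095411, minus strand) and Dusp1 (chr17:26508588-26508635, minus strand) are printed with the element in capitals. A match is a match of letters and was not tested as a binding site.
Dusp8: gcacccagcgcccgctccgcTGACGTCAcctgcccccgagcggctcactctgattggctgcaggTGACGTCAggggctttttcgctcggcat
Dusp1: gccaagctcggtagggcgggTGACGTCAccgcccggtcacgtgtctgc

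Before the comparison, the arrays were set side by side. HDM replicate 3 stood farthest from its group, with a root mean square deviation of 0.197 on the log2 scale over all genes, against 0.118 to 0.173 for the other arrays. Over the 24 Dusp genes its deviation was 0.313, against 0.102 to 0.204 for the others. After each group's mean was subtracted, same-numbered HDM and PBS arrays correlated at 0.43, 0.17 and 0.53 over genes for numbers 1, 2 and 3. Values fitted with the replicate number as a block, and values without HDM replicate 3, are therefore given where they change the call of a named member or list gene.

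The comparison of HDM with PBS asked how the transcripts of these brakes differed in lung CD4 cells after allergen challenge. Of the 62 members, 6 were higher in HDM and 0 lower (limma, adjusted p below 0.05 over all genes); of all genes tested, 2.39% were higher and 1.56% lower, 3.95% in all. The 6 were Socs2, Cish, Rgs16, Rgs1, Rgs3 and Spry1. The Dusp family had none among its 24 members. At an unadjusted p below 0.05, 14 members (22.6%) passed, against 17.8% of all genes. The median difference over the members was 0.04 on the log2 scale, and over all genes -0.01. Differences of the called members ranged from 0.54 (Rgs3) to 1.84 (Socs2).

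**Figure D1:**
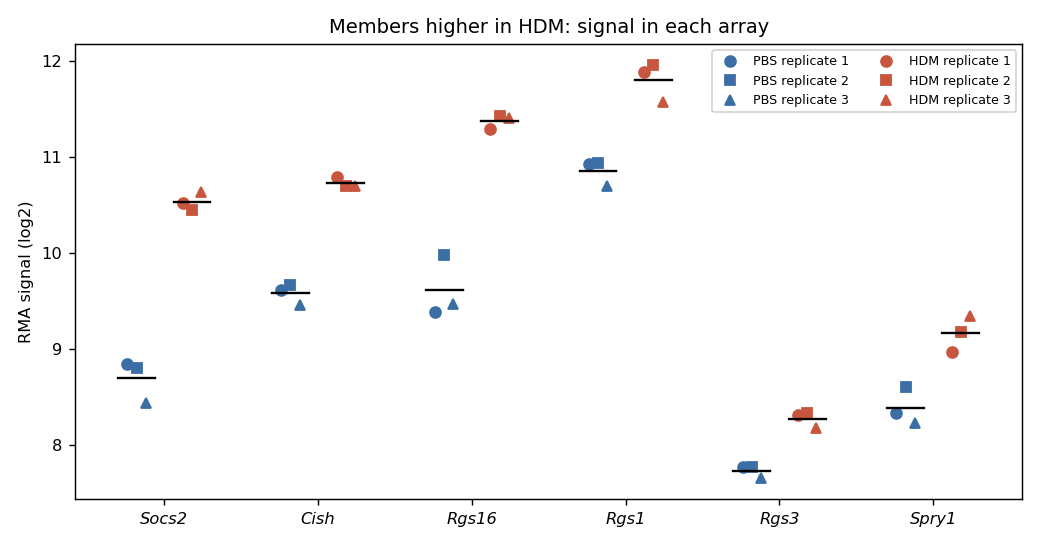
The RMA signal (log2, vertical axis) of the 6 members that were higher in HDM is plotted for each array, with PBS in blue, HDM in red, a marker shape for each replicate number and a bar at each group mean. In each of the 6 genes the lowest HDM array lies above the highest PBS array.

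Among the cytokine feedback genes, Socs2 and Cish rose and the other 6 members did not pass. Socs2, a STAT-induced inhibitor best known for restraining growth hormone signalling, had signals of 8.84, 8.80 and 8.43 in PBS replicates 1 to 3 and 10.52, 10.45 and 10.63 in HDM replicates 1 to 3. All HDM arrays lay more than 1.5 log2 units above all PBS arrays. The difference was 1.84 (SE 0.12, n = 3 per group, adjusted p = 0.000917), a 3.59-fold rise and the highest among the 62 members. A second, dimmer Socs2 probe set also rose, by 1.04 (SE 0.14, adjusted p = 0.01 over all probe sets).

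Cish, an SH2 protein that STAT5 induces downstream of interleukin 2 and related cytokines and that limits T cell receptor signalling, had PBS signals of 9.61, 9.66 and 9.46. Its HDM signals were 10.79, 10.70 and 10.70. The HDM arrays differed among themselves by less than 0.1, and the groups did not overlap. Cish rose 2.22-fold (1.15 ± 0.09 SE, adjusted p = 0.00135), and its second probe set rose by 1.11 (SE 0.22, adjusted p = 0.0358 over all probe sets). Both of its STAT motif matches are in the stretch printed above.

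Socs1 and Socs3 gave no such difference. Socs1, which blocks JAK kinases downstream of interferon gamma and other cytokines, had signals of 8.59, 8.66 and 8.87 in PBS and 8.57, 8.56 and 8.87 in HDM. The groups covered nearly the same range (difference -0.04, 95% interval -0.33 to 0.25, adjusted p = 0.915). Socs3, the brake on interleukin 6 receptor signalling, whose promoter stretch also holds a STAT motif, had 9.45, 9.74 and 10.07 in PBS and 9.51, 9.59 and 9.69 in HDM. The HDM arrays lay within the spread of the PBS arrays (difference -0.16, 95% interval -0.51 to 0.20, adjusted p = 0.687). A second, dimmer Socs3 probe set differed by -0.34 (SE 0.16, adjusted p = 0.312 over all probe sets). Socs5 differed by -0.09 (SE 0.11), and Socs4, Socs6 and Socs7 by between -0.08 and 0.07. The intervals of Socs1 and Socs3 leave out a rise as large as that of Socs2 or Cish, but not a small change.

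In the Rgs family 3 of 23 members rose, and all 3 belong to the R4 subfamily, whose typical members are small proteins with little more than the catalytic Rgs domain. Of the 10 R4 genes, 7 did not pass. Among these 7, Rgs4, Rgs5, Rgs8, Rgs13, Rgs18 and Rgs21 had mean signals at or below the low-signal yardstick of 6.79 described below. Rgs16, which acts on Gi and Gq alpha subunits, had signals of 9.38, 9.98 and 9.47 in PBS and 11.29, 11.42 and 11.40 in HDM. PBS replicate 2 was the highest PBS array and still lay more than 1 log2 unit below every HDM array. Rgs16 rose 3.39-fold (1.76 ± 0.15 SE, adjusted p = 0.00215).

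Rgs1, a brake on chemokine receptor signalling in lymphocytes, had PBS signals of 10.92, 10.93 and 10.70 and HDM signals of 11.88, 11.96 and 11.57. In each group the array numbered 3 was the lowest, and the groups did not overlap. Rgs1 rose 1.94-fold (0.96 ± 0.12 SE, adjusted p = 0.00628). Rgs3 had 7.77, 7.77 and 7.65 in PBS and 8.31, 8.33 and 8.17 in HDM, a smaller rise with narrow spread (1.45-fold, 0.54 ± 0.09 SE, adjusted p = 0.0229).

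Rgs2, which prefers Gq alpha subunits, had signals of 12.57, 12.65 and 12.65 in PBS and 12.60, 12.60 and 13.04 in HDM. Only HDM replicate 3 stood above the PBS arrays (difference 0.12, 95% interval -0.15 to 0.39, adjusted p = 0.673). Rgs14, of the R12 subfamily, differed by 0.26 (SE 0.20, adjusted p = 0.558). Of the R7 genes, whose proteins pair with the G protein subunit encoded by Gnb5, Rgs9 differed by 0.53 (SE 0.25, adjusted p = 0.328) and Rgs11 by -0.38 (SE 0.10, adjusted p = 0.0965). Rgs11 had 8.16, 7.98 and 7.97 in PBS and 7.77, 7.58 and 7.62 in HDM, with every HDM array below every PBS array, and it was lower with the replicate block (adjusted p = 0.0263, from 0.0263 to 0.302 over the alternatives). The other 16 Rgs genes differed by between -0.16 (Rgs5) and 0.11 (Rgs10), with adjusted p of 0.363 or more.

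Spry1 was the only called member of the Sprouty and Spred genes. Spry1, an inhibitor of RAS and ERK signalling that activated T cells express, had signals of 8.33, 8.60 and 8.23 in PBS and 8.97, 9.17 and 9.34 in HDM. The groups did not overlap, and Spry1 rose 1.71-fold (0.77 ± 0.14 SE, adjusted p = 0.0241). Spred2 had 9.18, 9.40 and 9.63 in PBS and 8.82, 8.79 and 9.43 in HDM. HDM replicates 1 and 2 lay below all PBS arrays and HDM replicate 3 among them (difference -0.39, SE 0.19, adjusted p = 0.349). Spred2 was lower with the block (adjusted p = 0.0375) and without HDM replicate 3 (-0.60, adjusted p = 0.0465), with 0.0207 to 0.661 over the alternatives. Spred1, which brings the RAS inhibitor neurofibromin to the membrane, differed by 0.11 (SE 0.11, adjusted p = 0.695). Spry2, Spry3, Spry4 and Spred3 differed by between -0.03 and 0.11.

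Socs2, Cish, Rgs16 and Rgs1 passed whichever array was omitted, and their highest adjusted p was then 0.0116, 0.0139, 0.0177 and 0.0389. Rgs3 and Spry1 lost the call without PBS replicate 1, PBS replicate 2, PBS replicate 3, HDM replicate 1 or HDM replicate 2, with adjusted p of up to 0.111 and 0.105. Their differences stayed between 0.50 and 0.59 for Rgs3 and between 0.68 and 0.88 for Spry1.

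**Figure D2:**
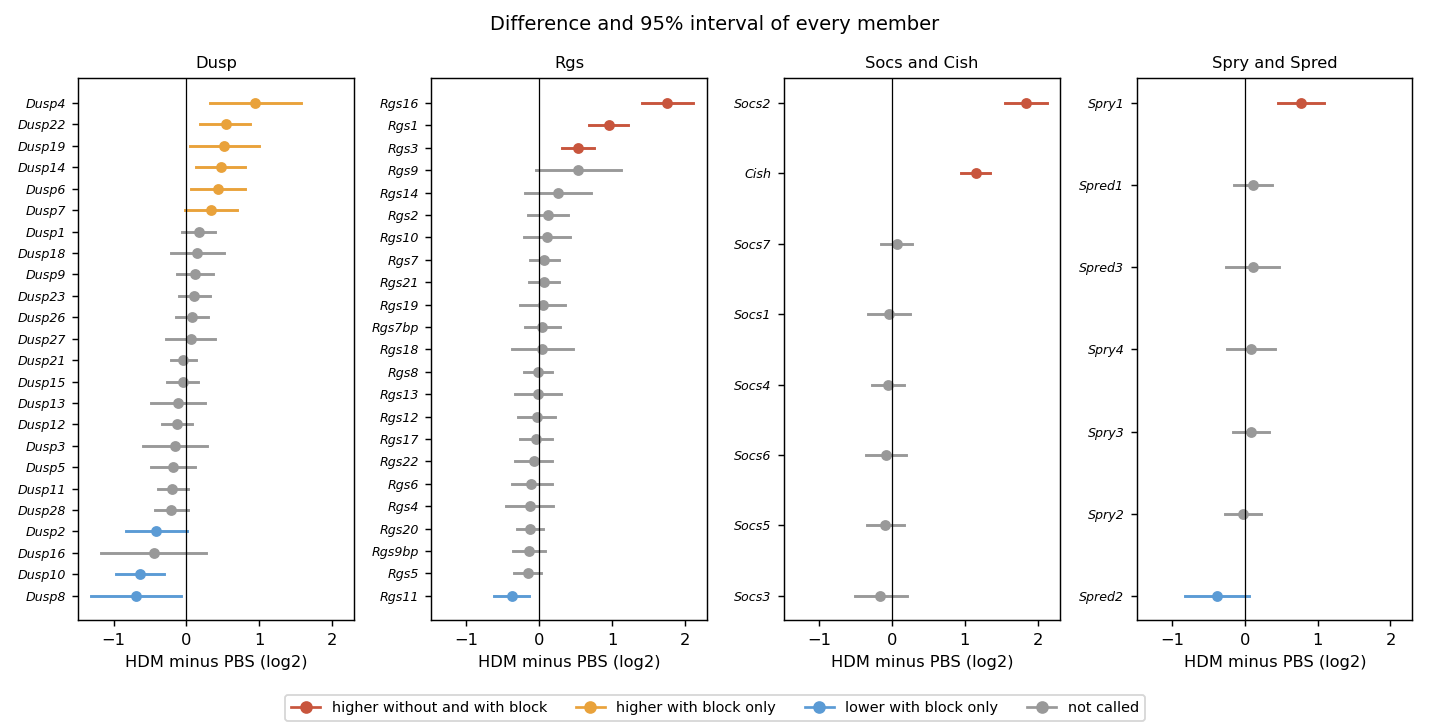
The difference HDM minus PBS (log2, horizontal axis) of all 62 members is drawn with its 95% interval from limma's moderated spread, by family. Red points mark the 6 members called in both fits, orange and light blue those higher or lower with the replicate block only, and grey those not called. Dusp genes hold most of the orange and light blue points, on both sides of 0.

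Among the Dusp genes 0 of 24 passed without the block, with limma, and 7 had an unadjusted p below 0.05 (29.2%, against 17.8% of all genes). With the replicate number as a block, 6 were higher and 3 lower in HDM. The block called 12 of the 62 members higher and 5 lower, against 5.95% and 6.01% of all genes. The 6 members named above were among the 17, and 9 of the 11 added were Dusp genes, the others being Rgs11 and Spred2. Without both arrays numbered 3, a setting without a block, 10 members were higher and 4 lower, against 5.64% and 5.98% of all genes. Directions within the family were mixed: 12 differences were above 0 and 12 below, with a median of 0.01. In 5 Dusp genes every HDM array lay above every PBS array and in 3 below, where 10.8% and 11.8% of all genes did so.

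Of the 4 nuclear inducible phosphatases, which activated cells make early, 0 passed without the block, and with it Dusp4 was higher and Dusp2 lower. Dusp4, which acts on ERK and other MAP kinases in the nucleus, had signals of 9.36, 9.86 and 9.72 in PBS and 10.16, 10.37 and 11.27 in HDM. The groups did not overlap, and HDM replicate 3 stood well above the other HDM arrays. The difference of 0.95 (SE 0.27) had an adjusted p of 0.111, of 0.0158 with the block, and of 0.0158 to 0.27 over the alternatives; without both arrays numbered 3 it was 0.65 (adjusted p = 0.0332). Dusp2, a nuclear phosphatase abundant in lymphocytes, had 9.55, 9.91 and 10.20 in PBS and 9.32, 9.35 and 9.75 in HDM. Each HDM array lay below the PBS array of its number, though the groups overlapped (-0.41 ± 0.18 SE, adjusted p = 0.293, 0.0221 with the block, 0.0221 to 0.569 over the alternatives).

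Dusp1, a broad MAP kinase phosphatase of the immediate early response, had 12.58, 12.45 and 12.45 in PBS and 12.54, 12.55 and 12.89 in HDM. The groups overlapped (difference 0.17, 95% interval -0.06 to 0.40, adjusted p = 0.453). Dusp5, the nuclear ERK phosphatase, had 12.34, 12.34 and 12.35 in PBS and 12.03, 11.95 and 12.50 in HDM. HDM replicates 1 and 2 lay below the nearly equal PBS arrays and HDM replicate 3 above them (-0.18 ± 0.13 SE, adjusted p = 0.548). Without HDM replicate 3, Dusp5 was lower by -0.35 (adjusted p = 0.0206, with 0.01 to 0.869 over the alternatives).

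The cytoplasmic ERK phosphatases Dusp6 and Dusp7 were higher with the block. Dusp6 had 10.27, 10.33 and 9.88 in PBS and 10.84, 10.61 and 10.34 in HDM. The lowest HDM array was just above the highest PBS array, and the array numbered 3 was the lowest of each group (0.43 ± 0.16 SE, adjusted p = 0.202, 0.0127 with the block, 0.0127 to 0.466 over the alternatives). Dusp7 had 9.55, 9.38 and 8.97 in PBS and 9.74, 9.67 and 9.50 in HDM. Its differences by number were 0.18, 0.29 and 0.53 (0.34 ± 0.15 SE, adjusted p = 0.305, 0.0485 with the block, 0.0485 to 0.55 over the alternatives). Dusp9, of the same kind, had a low signal and differed by 0.12.

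Of the phosphatases that act mainly on JNK and p38, Dusp8, Dusp10 and Dusp16 all had differences below 0. Dusp10 had 12.42, 12.51 and 12.43 in PBS and 11.66, 11.61 and 12.18 in HDM. Every HDM array lay below every PBS array, with HDM replicate 3 nearest to them. The difference was -0.64 (SE 0.14), or 1.55-fold lower, with an adjusted p of 0.0522, just short of the threshold; it was 0.0149 with the block and 0.00107 without HDM replicate 3 (-0.82), and 0.00028 to 0.213 over the alternatives. Dusp8, whose stretch with the cyclic AMP elements is printed above, had 8.14, 8.16 and 8.38 in PBS and 7.29, 7.09 and 8.22 in HDM. HDM replicates 1 and 2 were far below the PBS arrays, and HDM replicate 3 lay among them.

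The difference of Dusp8 was -0.69 (SE 0.27, adjusted p = 0.223), with an adjusted p of 0.0375 with the block and of 0.00401 without HDM replicate 3 (-1.04), and 0.00171 to 0.522 over the alternatives. Dusp16 had 8.60, 9.11 and 9.61 in PBS and 8.39, 8.31 and 9.27 in HDM. Both groups spread widely, with the array numbered 3 the highest in each (-0.45 ± 0.31 SE, adjusted p = 0.529, 0.0527 with the block, 0.0527 to 0.818 over the alternatives).

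Among the small atypical phosphatases, Dusp14, Dusp19 and Dusp22 were higher with the block. Dusp14, which dampens T cell receptor signalling and whose promoter stretch holds a STAT motif, had 7.98, 8.12 and 8.01 in PBS and 8.27, 8.45 and 8.80 in HDM (0.47 ± 0.14 SE, adjusted p = 0.125, 0.0406 with the block, 0.0406 to 0.28 over the alternatives). Dusp22, which removes phosphate from the T cell kinase Lck, had 7.18, 6.84 and 6.77 in PBS and 7.55, 7.62 and 7.22 in HDM (0.54 ± 0.15 SE, adjusted p = 0.103, 0.0206 with the block, 0.0206 to 0.323 over the alternatives). In both genes the HDM arrays lay above all PBS arrays. Dusp22 also passed without HDM replicate 3 (0.66, adjusted p = 0.0355). Dusp19 had 8.03, 8.04 and 7.40 in PBS and 8.45, 8.56 and 8.04 in HDM, with PBS replicate 3 and HDM replicate 3 both the lowest of their group (0.52 ± 0.20 SE, adjusted p = 0.227, 0.0101 with the block, 0.0101 to 0.517 over the alternatives).

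Of the remaining Dusp genes none passed in either fit. Dusp28 had 7.55, 7.63 and 7.49 in PBS and 7.24, 7.43 and 7.39 in HDM (-0.21 ± 0.10 SE, adjusted p = 0.321). The other 11 differed by between -0.19 (Dusp11) and 0.15 (Dusp18), with adjusted p of 0.327 or more.

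**Figure D3:**
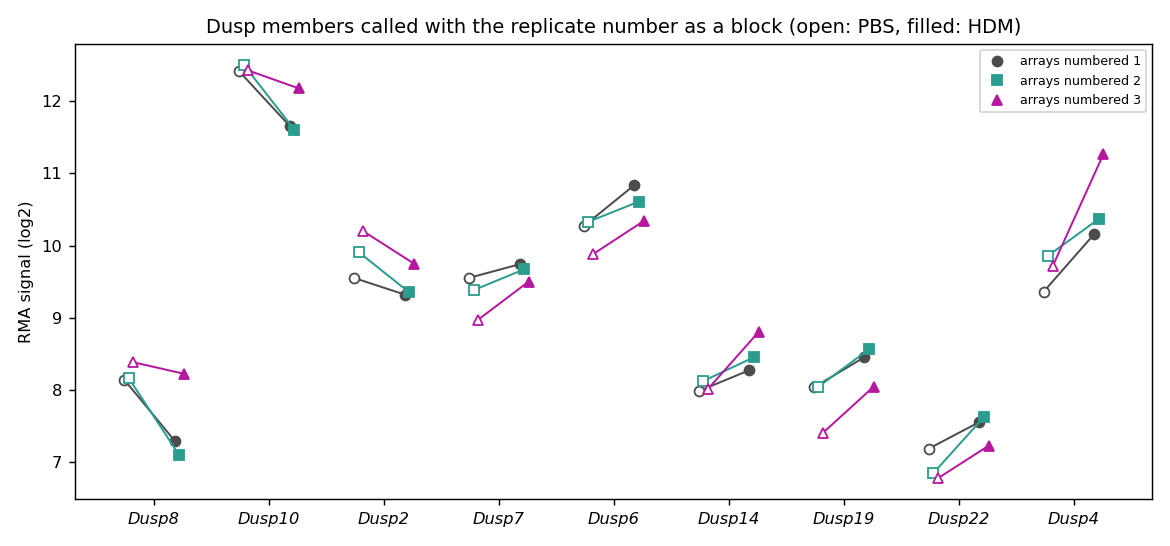
The RMA signal (log2, vertical axis) of the 9 Dusp genes called with the replicate block is drawn for each array, open for PBS and filled for HDM, with a line joining the arrays of one number. All lines of a gene run the same way, which the block fit that picked these genes favours. For Dusp8 and Dusp10 the line of the arrays numbered 3 is the flattest, and for Dusp4 it is the steepest.

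As a yardstick for low signals, the mean signals of 1394 olfactory and vomeronasal receptor genes, which T cells are not known to use, had a 95th percentile of 6.79. Of all genes tested, 48.1% had a mean at or below it. Of the members, 39 had a mean above it and 23 did not: 14 of 23 Rgs, 5 of 24 Dusp, 4 of 7 Spry and Spred, and 0 of 8 Socs and Cish. These 23 differed by between -0.16 and 0.12. Probe sets differ in how strongly they bind, so the yardstick is no detection call.

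The genes that feed into or follow from the same pathways were counted from lists of general knowledge, beside 2.39% of all genes called higher and 1.56% lower (5.95% and 6.01% with the block). Of 16 measured STAT-induced cytokine response genes, 2 rose and 2 fell (7 and 3 with the block). Il2ra, the interleukin 2 receptor alpha chain, rose from 10.33, 10.42 and 10.25 in PBS to 11.31, 11.51 and 11.66 in HDM (1.16 ± 0.10 SE, adjusted p = 0.00245). Irf4, a transcription factor of activated T cells, rose by 1.01 (adjusted p = 0.0227), while the survival gene Bcl2 fell by 0.80 (adjusted p = 0.00991) and Il4ra, the interleukin 4 receptor chain, fell by 0.77 (adjusted p = 0.0421). The list's median difference was 0.16.

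Of 22 measured JAK, STAT and attenuator genes, 1 fell, Jak1, a kinase of many cytokine receptors (-0.29 ± 0.06 SE, adjusted p = 0.0299), and 21 did not pass. With the block, 5 were higher and 5 lower. The list's median difference was -0.05.

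On the ERK side of signalling, 0 of 26 measured genes of the MAP kinase cascade passed with limma. With the block, 3 were higher and 5 lower. The differences furthest from 0 were those of Map3k14 (-0.67 ± 0.24 SE, adjusted p = 0.195) and Map3k1 (-0.66 ± 0.21 SE, adjusted p = 0.135). Both were lower with the block (adjusted p = 0.0104 and 0.00712) and without HDM replicate 3 (adjusted p = 0.0345 and 0.0177). Of 19 measured early genes that ERK and calcium signals induce, 1 rose, Egr3, a transcription factor of the T cell receptor response (1.28 ± 0.22 SE, adjusted p = 0.0198). With the block 4 were higher and 1 lower. Of 17 other brakes on RAS and receptor kinases, 2 fell: Rasa3 (-0.64 ± 0.10 SE, adjusted p = 0.0149) and Rasa2 (-0.44 ± 0.08 SE, adjusted p = 0.0272), which both turn RAS off by stimulating its GTPase. With the block 1 was higher and 6 lower.

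Among 28 measured G protein subunits, G protein receptor kinases and arrestins, 3 rose and 0 fell. Gna15, an alpha subunit of the Gq class found in blood cells, rose by 1.00 (SE 0.13, adjusted p = 0.00773), Gng2, a gamma subunit, by 0.94 (SE 0.11, adjusted p = 0.00483) and Gnaq, the Gq alpha subunit, by 0.76 (SE 0.14, adjusted p = 0.0269). With the block 7 were higher and 1 lower. Il2ra and Gng2 passed whichever array was left out. Gna15 lost the call without PBS replicate 2 (adjusted p = 0.0501), and Gnaq without PBS replicate 1, PBS replicate 2 or HDM replicate 1 (up to 0.113). Irf4 lost it without PBS replicate 1, PBS replicate 3 or HDM replicate 2 (up to 0.105). Egr3, Jak1, Bcl2 and Rasa3 lost it without replicate 1 or 2 of either group (up to 0.0845, 0.14, 0.0535 and 0.0667), and Il4ra and Rasa2 without any array other than HDM replicate 3 (up to 0.172 and 0.144).

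**Figure D4:**
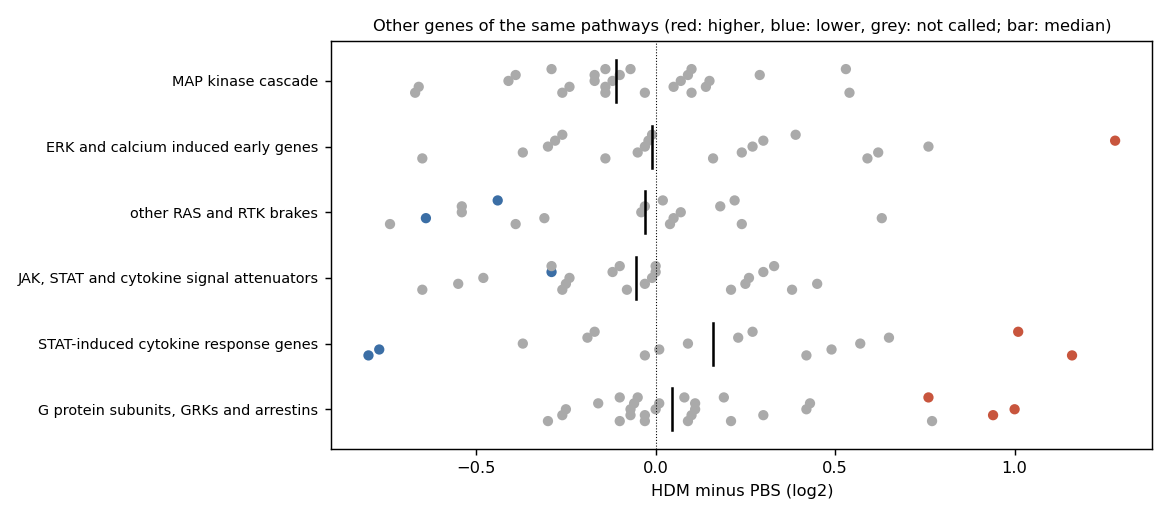
The difference HDM minus PBS (log2, horizontal axis) is plotted for each measured gene of 6 pathway lists, with red for higher, blue for lower and grey for not called in the fit without a block, and a bar at each list's median. Each list has between 0 and 4 calls, and the medians lie between -0.11 and 0.16.

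Markers of other cells were read beside these results, as log2 sums of their signals. In bulk samples, fewer cells of a type and less RNA per cell cannot be told apart. The sum of 10 macrophage and monocyte genes ran from 11.98 to 12.27 in PBS and from 12.70 to 12.99 in HDM, and 1 of them, Chil3, was called higher (2.11, adjusted p = 0.0248). Without Chil3 the groups overlapped, at 11.68 to 12.17 and 11.76 to 12.47. Sums of 5 eosinophil genes ran from 8.20 to 8.44 in PBS and from 8.83 to 8.97 in HDM. All 5 had a mean over the 6 arrays at or below the yardstick. Ccr3, the 1 called higher, had 6.13, 5.98 and 5.40 in PBS and 7.62, 7.83 and 7.76 in HDM (1.90, adjusted p = 0.00274). Its HDM arrays all lay above the yardstick. Without Ccr3 the sums were 7.98 to 8.12 and 8.01 to 8.15. The 5 NK and innate lymphoid genes gave 11.86 to 12.34 and 12.58 to 12.96. Without Id2 and Rora, which T cells also express, the sums of Ncr1, Klrb1c and Eomes, all at or below the yardstick, were 7.81 to 8.08 and 7.62 to 8.28. The genes left out of these sums were chosen after seeing the data.

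Other marker calls were fewer without the block than with it. Without it, Itgax of 8 dendritic cell genes was higher and Ccr7 lower, Pecam1 of 8 endothelial and pericyte genes lower, and Cdh1 of 7 epithelial genes higher, with none among 7 B and plasma cell, 8 neutrophil, 8 mast cell and basophil, and 5 platelet genes. The block added Jchain, an antibody joining chain of plasma cells (1.41, adjusted p = 0.0789, 0.00235 with the block), Csf1r, H2-Ab1, Id2 and Rora as higher, and Cdh5, Tek, Kdr, Kit and Sftpc as lower. Endothelial and pericyte sums were 12.04 to 12.44 in PBS and 11.49 to 12.06 in HDM. Pecam1 was the brightest gene in them (means of 11.61 in PBS and 11.10 in HDM), and which cells gave its signal was not tested. The list's other genes differed by between -1.06 (Tek) and -0.08 (Cspg4). Dendritic cell sums were 13.44 to 13.65 and 13.03 to 13.61, and epithelial sums 11.68 to 12.98 and 11.97 to 13.03. Endothelial, dendritic cell and epithelial sums each overlapped, as did those of B cells, neutrophils, mast cells and platelets. The dendritic cell sum mostly followed its brightest gene, Ccr7, whose PBS mean of 13.06 was above that of Cd4 (12.52). Ccr7 differed by -0.66, and the list's other genes by between -0.01 (Flt3) and 1.06 (Itgax). Sums without Ccr7 were not made, and which cells gave its signal was not tested. Epithelial Scgb1a1 ran from 10.94 to 12.48. Epithelial Sftpc had 9.38 in PBS replicate 1, 9.12 in HDM replicate 1, and 10.45 or more in the other arrays. Both genes lay above the yardstick throughout. Sums of 8 measured CD4 T cell genes ran from 15.08 to 15.09 in PBS and from 15.26 to 15.35 in HDM, with Zap70 and Icos called higher, and Cd3g and Cd5 too with the block. The part of these differences in the rise of Socs2, Cish, Rgs16, Rgs1, Rgs3 and Spry1 was not tested.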

How the data were processed

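The authors deposited log2 signals per probe set, 1 column per array, made with RMA (version not stated), as the submitters' processing notes record. Because RMA equalises the arrays' distributions, total RNA per cell cannot be read from these values. Of 33960 probe sets, 23521 had exactly 1 gene symbol in the platform annotation, 1814 several and 8625 none. They gave 22180 genes, each represented by its probe set with the highest mean over the 6 arrays; 7 members had more than 1. Genes were tested as HDM minus PBS in R 4.3.3 with limma 3.58.1 (lmFit, eBayes with intensity trend, two-sided), with Benjamini-Hochberg adjustment over all genes and a threshold of 0.05. SEs and 95% intervals use limma's moderated spread; the number of arrays limits the precision.

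What the replicate numbers mean is not stated in the labels, so the main fit had no block and the block was an alternative. The correlations of 0.43, 0.17 and 0.53 exceeded the minimum of 0.1 for treating the numbers as pairs; HDM replicate 2 and PBS replicate 1 also correlated, at 0.25. The members and lists were chosen with earlier results of these data known. Named were all members called without or with the block, the 2 largest other differences per family, and 18 textbook members; of each list, up to 4 called genes or else the 2 largest differences. The test was first run on simulated data with known changes. Alternatives covered filters on dim genes, normalization, variance models, array weights, probe set choice, the block, thresholds and left-out arrays.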

Additional observations from a re-analysis of the deposited data

How the results depend on the processing

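Of the 6 called members, Socs2, Cish, Rgs16 and Rgs1 kept direction and call under all 19 alternatives, and Rgs3 and Spry1 under 13 of 19, losing the call at a threshold of 0.01 and without any array other than HDM replicate 3. The count of 6 higher members became 12 with the replicate block, and 10 when both arrays numbered 3 were left out. The count of 0 lower members became 1 with genes below the 25th percentile or the median left out, repeated quantile normalization, centring on array medians or array weights, 5 with the replicate block, 4 without both arrays numbered 3, 2 at a threshold of 0.1, and 0 to 4 with 1 array left out (4 without HDM replicate 3). For Dusp genes, 0 higher became 1 with array weights, 6 with the block, 4 without both arrays numbered 3, and 0 to 1 with 1 array left out. Their 0 lower became 1 under the filters, normalizations, array weights and a threshold of 0.1, 3 with the block or without both arrays numbered 3, and 0 to 3 with 1 array left out. Rgs genes had 1 lower with the block and 1 at 0.1. Spry and Spred had 0 higher at 0.01 and 0 to 1 with 1 array left out, and 1 lower with the block, without both arrays numbered 3, and 0 to 1 with 1 array left out. The members' median difference was 0.11, and that of Rgs genes 0.26, with genes below the median left out, which drops dim members; with 1 array left out the members' median ran from -0.02 to 0.03. The cause of the other changes was not tested. No probe set with several symbols named a member, so that alternative was not run. With 3 arrays per group, the power to call small differences was limited.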
